A study of Homo sapiens with 6 samples.

Results

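The genes described are 9 that act directly below the p38 MAP kinases: the kinase genes MAPKAPK2, MAPKAPK3, MAPKAPK5, MKNK1, MKNK2, RPS6KA4 and RPS6KA5, and the transcription factor genes ATF2 and ELK4. They were taken from the deposited gene table by gene name, and all 9 were found among its 33539 genes. Poly(A) RNA was sequenced from 8505C, an established human cell line derived from an anaplastic thyroid carcinoma, grown in medium with fetal bovine serum. The 3 NC libraries came from cells given the comparison siRNA labelled NC, and the 3 siPOLR1F libraries from cells given siRNA against POLR1F, a subunit of RNA polymerase I; both were collected after 24 h and carry the same batch label. The labels name no siRNA sequence, do not give the number of siRNAs against POLR1F, and do not state whether a group's libraries are separate cultures; the p-values therefore reflect library-to-library spread, which may be technical. The title of the series names p38 MAPK signalling and the thrombin receptor F2R as lying downstream of POLR1F.

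The p38 kinases are switched on by phosphorylation in response to stress, cytokines and receptor signals, and they pass the signal on by phosphorylating a second tier of kinases and a set of transcription factors. MAPKAPK2 and MAPKAPK3 control the stability and translation of AU-rich messenger RNAs, the MNK kinases (MKNK1, MKNK2) phosphorylate the cap-binding protein eIF4E, and the MSK kinases (RPS6KA4, RPS6KA5) phosphorylate CREB and histone H3 at immediate-early genes. ATF2 binds cyclic AMP response elements and ELK4 is an ETS factor that works with serum response factor. The activity of these proteins is set by phosphorylation, which RNA levels do not measure.

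The start-site regions of the members that rose are shown because the motifs of ATF2 and ELK4 themselves can be looked for in them. RefSeq promoter windows (GRCh38.p14, 300 bases around an annotated start, most of them before it) were matched for 7 of the 9 members, in 9 windows. ATF2 and MAPKAPK2 were not matched. The windows below are MKNK2 (chr19:2051195-2051494, minus strand), RPS6KA4 (chr11:64358912-64359211, plus strand) and ELK4 (chr1:205631962-205632261, minus strand), each 5′ to 3′ on the strand of the gene, with capitals for motif matches.
MKNK2: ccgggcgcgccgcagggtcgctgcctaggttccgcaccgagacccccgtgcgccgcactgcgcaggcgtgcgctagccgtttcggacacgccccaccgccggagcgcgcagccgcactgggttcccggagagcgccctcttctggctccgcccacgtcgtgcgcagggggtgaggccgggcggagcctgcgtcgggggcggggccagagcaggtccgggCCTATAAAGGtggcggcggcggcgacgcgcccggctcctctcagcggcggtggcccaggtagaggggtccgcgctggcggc
RPS6KA4: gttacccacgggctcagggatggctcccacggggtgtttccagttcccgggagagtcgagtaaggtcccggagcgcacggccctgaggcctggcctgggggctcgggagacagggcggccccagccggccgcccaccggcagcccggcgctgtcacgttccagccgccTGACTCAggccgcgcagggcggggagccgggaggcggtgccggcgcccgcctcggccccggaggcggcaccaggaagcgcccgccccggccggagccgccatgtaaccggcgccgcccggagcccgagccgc
ELK4: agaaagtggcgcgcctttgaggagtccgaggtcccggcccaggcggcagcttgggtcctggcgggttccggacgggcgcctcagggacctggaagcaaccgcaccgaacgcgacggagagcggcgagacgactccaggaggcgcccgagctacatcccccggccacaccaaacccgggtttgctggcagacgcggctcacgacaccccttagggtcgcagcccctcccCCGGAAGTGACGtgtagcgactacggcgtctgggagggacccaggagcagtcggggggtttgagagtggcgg

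The ELK4 window holds an ETS core (CCGGAAG), the kind of site that ELK4 itself binds, from base -22 to -16 before the start, directly followed by the core of a cyclic AMP response element (TGACG), the site that ATF2 binds, from -15 to -11. The RPS6KA4 window holds an AP-1 site (TGANTCA), a motif of JUN and FOS dimers that ATF2 and its relatives can also bind when paired with JUN, from -82 to -76. The MKNK2 window holds a TATA box (TATAAA, searched on the strand of the gene only) from -29 to -24, which lies inside a match to the CArG box of serum response factor from -31 to -22, so that these letters serve both motifs. Besides these, MAPKAPK3 had an ETS core in one of its windows and a TGACG core in the other, and RPS6KA5 had a TGACG core in one of its windows. No match to the 5 motifs was found in the windows of MKNK1 and MAPKAPK5. Searched on both strands of all 35116 windows of the same length, the TGACG core was in 24.6%, the ETS core in 10.3%, the AP-1 site in 7.71% and the CArG box in 1.29%; the TATA box was in 7.33%. A match is a description of the letters and does not show that a factor was bound.

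The libraries held 60576788 to 63038378 counts each. POLR1F had an FPKM (fragments counted per transcript length and library size, so that levels can be compared between genes) of 8.80, 8.42 and 7.64 in NC and 2.09, 1.42 and 1.51 in siPOLR1F, so the targeted gene was lower in each silenced library (log2 fold change -2.30, SE 0.15; edgeR adjusted p = 9.76e-05). F2R fell by 1.18 on the log2 scale (edgeR adjusted p = 0.00181).

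The labelled cell type was checked against marker lists. Of 7 thyroid markers in the table, whose summed level was 47.2 to 52.8 FPKM in NC and 31.0 to 34.3 FPKM in siPOLR1F, NKX2-1 and HHEX reached a mean of 1 FPKM over the libraries, and thyroglobulin (TG), the thyrotropin receptor (TSHR) and the iodide transporter (SLC5A5) were at or near 0. The lineage factor genes PAX8 and FOXE1 were below 1 FPKM, and each was lowest in replicate 3 of both groups. PAX8 had 407, 300 and 134 counts in NC and 314, 341 and 113 in siPOLR1F. FOXE1 had 80, 66 and 7 counts in NC and 69, 79 and 0 in siPOLR1F. NKX2-1 fell by 0.71 on the log2 scale (edgeR adjusted p = 4.35e-04). Of 6 epithelial markers (685 to 787 FPKM in NC, 595 to 677 FPKM in siPOLR1F), the keratins KRT7, KRT8 and KRT18 were abundant, while CDH1, EPCAM and KRT19 were each below 1 FPKM; KRT8 fell by 0.25 (adjusted p = 0.0197), a call lost without NC replicate 3, siPOLR1F replicate 1 or siPOLR1F replicate 3 (up to 0.0660, within 0.00149 to 0.110 over its alternatives). All 5 mesenchymal markers reached 1 FPKM (706 to 767 FPKM in NC, 724 to 749 FPKM in siPOLR1F), and FN1 among them fell by 0.44 (edgeR adjusted p = 0.0126). Of 3 leukocyte markers in the table (9.08 to 14.02 FPKM in NC, 11.4 to 17.6 FPKM in siPOLR1F), PTPRC was near 0, and CD68 and CD14 were at 9.33 ± 2.68 and 1.57 ± 0.0340 FPKM in NC (SD, n = 3), without passing the test. Of 4 endothelial markers (5.62 to 6.94 FPKM in NC, 2.37 to 5.05 FPKM in siPOLR1F), CDH5 alone reached 1 FPKM and fell by 1.04 (edgeR adjusted p = 0.00308). VWF, KDR and PECAM1 were low but varied between libraries across the groups. Each was higher in NC replicate 2 and siPOLR1F replicates 1 and 2 than in the other libraries. VWF, for example, had 12, 381 and 28 counts in NC and 446, 519 and 0 in siPOLR1F. The source of these reads was not tested. None of the 5 fibroblast markers reached 1 FPKM (1.38 to 1.92 FPKM in NC, 1.25 to 1.44 FPKM in siPOLR1F). The part of these markers in the results below was not tested.

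Of the 9 members, 3 rose after POLR1F silencing, namely MKNK2, ELK4 and RPS6KA4, and none fell. The rise was 1.99 times the NC level for MKNK2, 1.55 times for ELK4 and 1.31 times for RPS6KA4. All 9 members entered the test, which covered the 13564 genes with a mean of at least 0.5 FPKM over the 6 libraries. At an adjusted p below 0.05 in edgeR's quasi-likelihood test, 10.3% of these genes were called higher and 6.94% lower. At an unadjusted edgeR p below 0.05, 1 member was lower (MKNK1) and 4 were higher. Many genes pass that level: a gene with an unadjusted edgeR p of 0.0481 ranked 4406 of the 13564 by p-value. At the adjusted threshold, DESeq2 and limma on log2(FPKM + 1) also called 0 members lower. The median log2 fold change was 0.08 over the 9 members and -0.01 over all genes tested. In 7 of the 9 members the FPKM of the 2 groups did not overlap, 4 of them with siPOLR1F higher and 3 with siPOLR1F lower. Over all genes tested the groups did not overlap with siPOLR1F higher in 18.9% and with siPOLR1F lower in 19.0%. In RNA from whole cultures, a change in the share of cells that express a gene and a change in its RNA per cell cannot be told apart.

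**Figure D1:**
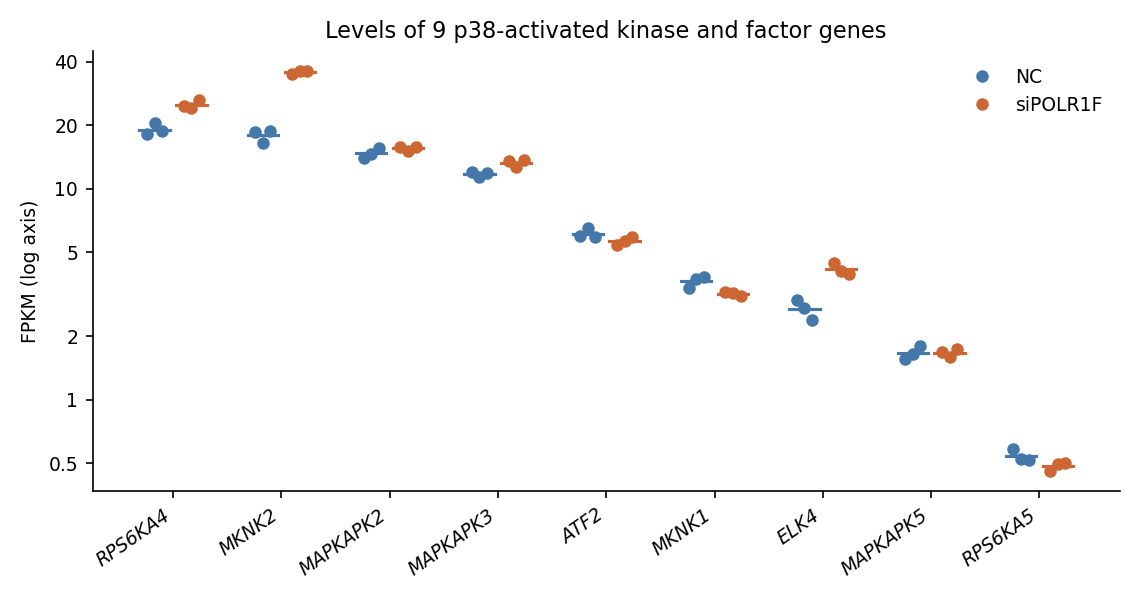
FPKM of the 9 genes on a log axis, ordered by their NC mean, with 1 point per library (3 NC, 3 siPOLR1F) and a line at each group mean. MKNK2, ELK4 and RPS6KA4 stand clearly higher in siPOLR1F, and the groups of MAPKAPK2 and MAPKAPK5 overlap.

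MKNK2, the gene of the MNK kinase with high basal activity toward eIF4E, changed most among the members. MKNK2 (ENSG00000099875, GRCh38 chromosome 19, 2037465 to 2051244, minus strand) had an FPKM of 18.5, 16.4 and 18.8 in NC and 34.8, 36.2 and 35.9 in siPOLR1F. Each siPOLR1F library was far above each NC library, and the counts behind these values were 5775 to 6832 in NC and 12599 to 13279 in siPOLR1F. The log2 fold change was 1.00 (SE 0.06, 95% interval 0.85 to 1.15; edgeR adjusted p = 8.16e-05), which placed MKNK2 at rank 22 of the 13564 genes by p-value. No other gene of the table overlapped it; genes overlapping MAPKAPK2, MAPKAPK3, MKNK1, RPS6KA4, ATF2 and ELK4 were each below 0.5 FPKM in NC.

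MKNK1 (ENSG00000079277, chromosome 1, 46557407 to 46604294, minus strand), the other MNK gene, had an FPKM of 3.399, 3.73 and 3.81 in NC and 3.25, 3.19 and 3.11 in siPOLR1F. Its siPOLR1F libraries all lay below its NC libraries, but the difference did not pass the test (log2 fold change -0.19, 95% interval -0.35 to -0.03; edgeR adjusted p = 0.101). Within the MNK RNA the share of MKNK2 was higher after silencing: it made up 84.5%, 81.4% and 83.2% of the summed MKNK1 and MKNK2 FPKM in NC and 91.5%, 91.9% and 92.0% in siPOLR1F. The summed level was 21.5 ± 1.30 FPKM in NC and 38.8 ± 0.683 FPKM in siPOLR1F (SD, n = 3). By counts the gap between the MNK genes was smaller, at 5775 to 6832 for MKNK2 and 1943 to 2145 for MKNK1 in NC. In siPOLR1F the counts were 12599 to 13279 and 1756 to 1825. The size of the MKNK2 share therefore rests on the transcript lengths used.

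The MSK genes differed in level by far more than either moved. RPS6KA4 (ENSG00000162302, chromosome 11, 64359148 to 64372215, plus strand), which encodes MSK2, had an FPKM of 18.1, 20.4 and 18.7 in NC and 24.6, 24.1 and 26.2 in siPOLR1F. Both groups were clearly apart, with a log2 fold change of 0.40 (SE 0.06, 95% interval 0.25 to 0.55; edgeR adjusted p = 0.00537). RPS6KA5 (ENSG00000100784, chromosome 14, 90847861 to 91060641, minus strand), which encodes MSK1, was near the lower limit of the tested genes, at 0.586, 0.522 and 0.517 FPKM in NC and 0.458, 0.498 and 0.5001 FPKM in siPOLR1F. Its groups also did not overlap, with siPOLR1F lower, but the difference did not pass (log2 fold change -0.15, 95% interval -0.36 to 0.06; edgeR adjusted p = 0.292). RPS6KA5 shares 309 bases with DGLUCY on the other strand, at 3.70 FPKM in NC. RPS6KA4 made up 97.2% of the summed MSK FPKM in NC and 98.1% in siPOLR1F (means of 3 libraries). By counts the gap was much smaller, at 4849 to 5253 for RPS6KA4 and 988 to 1157 for RPS6KA5 in NC. The FPKM share and the low FPKM of RPS6KA5 therefore rest on the transcript lengths used.

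The MAPKAPK genes moved little. MAPKAPK2 (ENSG00000162889, chromosome 1, 206684905 to 206734281, plus strand), the main kinase of HSPB1 and of the RNA-binding protein ZFP36, had an FPKM of 14.04, 14.7 and 15.5 in NC and 15.8, 15.1 and 15.8 in siPOLR1F. These groups overlapped, and the interval of the log2 fold change (0.08) ran from -0.05 to 0.22 (edgeR adjusted p = 0.375). MAPKAPK3 (ENSG00000114738, chromosome 3, 50611520 to 50649291, plus strand), its close relative with similar substrates, had an FPKM of 12.0, 11.4 and 11.9 in NC and 13.5, 12.6 and 13.7 in siPOLR1F. All its siPOLR1F libraries were higher, by 0.18 on the log2 scale (95% interval 0.04 to 0.33), without passing the adjusted test (edgeR adjusted p = 0.0864).

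MAPKAPK5 (ENSG00000089022, chromosome 12, 111842228 to 111902222, plus strand), also called PRAK, is bound and activated by the atypical MAP kinase ERK3 as well as by p38. It had an FPKM of 1.57, 1.65 and 1.80 in NC and 1.69, 1.59 and 1.73 in siPOLR1F. Libraries of both groups were intermixed (log2 fold change 0.01, 95% interval -0.17 to 0.19; edgeR adjusted p = 0.964). Under library-size scaling, and without some single libraries, the sign of this small value was negative, so no direction can be given. It shares 675 bases with MAPKAPK5-AS1 on the other strand, at 3.16 FPKM in NC, and reads of the overlap may be divided between them.

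ELK4 was the transcription factor gene that rose. ELK4 (ENSG00000158711, chromosome 1, 205597556 to 205631962, minus strand) had an FPKM of 2.96, 2.71 and 2.38 in NC and 4.44, 4.08 and 3.95 in siPOLR1F. Each siPOLR1F library was above each NC library, with a log2 fold change of 0.64 (SE 0.09, 95% interval 0.42 to 0.85; edgeR adjusted p = 0.00359). ATF2 (ENSG00000115966, chromosome 2, 175072250 to 175168382, minus strand), a target of both p38 and JNK, had an FPKM of 5.94, 6.54 and 5.91 in NC and 5.41, 5.65 and 5.87 in siPOLR1F. Its libraries lay close together, the highest siPOLR1F value just under the lowest NC value, and the difference did not pass (log2 fold change -0.11, 95% interval -0.27 to 0.05; edgeR adjusted p = 0.319).

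**Figure D2:**
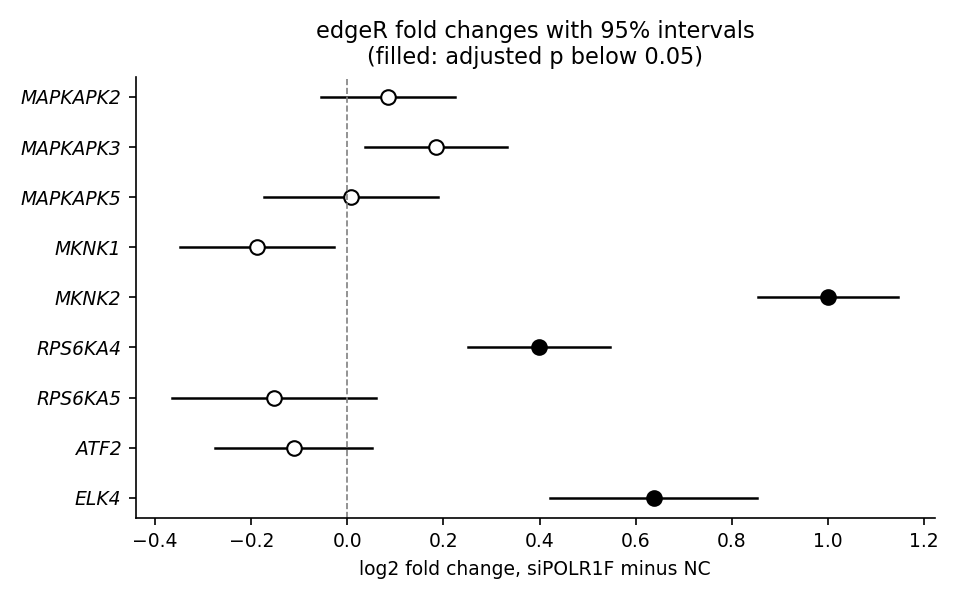
Log2 fold changes of the 9 genes (siPOLR1F minus NC) from edgeR, with bars for the 95% interval; filled points have an adjusted p below 0.05. MKNK2, ELK4 and RPS6KA4 are filled, and the intervals of MAPKAPK3 and MKNK1 exclude 0 although their adjusted p-values do not pass.

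The calls of MKNK2, ELK4 and RPS6KA4 held in every alternative that tested them, the omission of each single library included. Over these alternatives the adjusted p reached at most 0.00179 for MKNK2, 0.0200 for ELK4 and 0.0314 for RPS6KA4, each without a filter on low values. The exact two-sided permutation test over libraries gave p = 0.1 for each of these 3 genes, the smallest value that 3 against 3 libraries allow.

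In NC the order of the levels per length ran from RPS6KA4 (19.0 FPKM) and MKNK2 (17.9 FPKM) through MAPKAPK2, MAPKAPK3, ATF2, MKNK1, ELK4 and MAPKAPK5 down to RPS6KA5 (0.542 FPKM). RPS6KA4 and MKNK2 overlapped in NC, and each other pair of neighbours was apart. In siPOLR1F the order changed at 2 places: MKNK2 (35.6 FPKM) stood above RPS6KA4 (24.98 FPKM), and ELK4 (4.16 FPKM) above MKNK1 (3.18 FPKM). No neighbours overlapped there. Both orders rest on the transcript lengths behind FPKM. Counts in NC, for example, were 2021 to 2544 for ELK4 and 1943 to 2145 for MKNK1.

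Ratios of related genes were compared within each library, which removes library scaling. The log2 FPKM ratio of MKNK2 to MKNK1 was 2.29 ± 0.155 in NC and 3.49 ± 0.0558 in siPOLR1F (SD, n = 3), a difference of 1.19. The ratio of RPS6KA4 to RPS6KA5 differed by 0.55 and that of ELK4 to ELK1, another ternary complex factor gene, by 0.52; in these 3 pairs the groups did not overlap. By FPKM, ELK4 was the minor partner of ELK1 in both conditions, with 12.4% of their summed FPKM in NC and 16.9% in siPOLR1F. By counts the gap was smaller, at 2021 to 2544 for ELK4 and 4389 to 4563 for ELK1 in NC. In siPOLR1F the counts were 3345 to 3750 and 4680 to 5178. The size of the FPKM share therefore rests on the transcript lengths used. The ratio of MAPKAPK2 to MAPKAPK3 was 0.33 ± 0.0856 in NC and 0.23 ± 0.0263 in siPOLR1F (SD, n = 3), with overlapping groups. Exact two-sided permutation tests of these 4 pairs gave p = 0.1 (0.133 adjusted by Benjamini-Hochberg) for the 3 pairs that did not overlap and p = 0.2 for MAPKAPK2 and MAPKAPK3. With 3 libraries a group this test cannot go below 0.1.

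**Figure D3:**
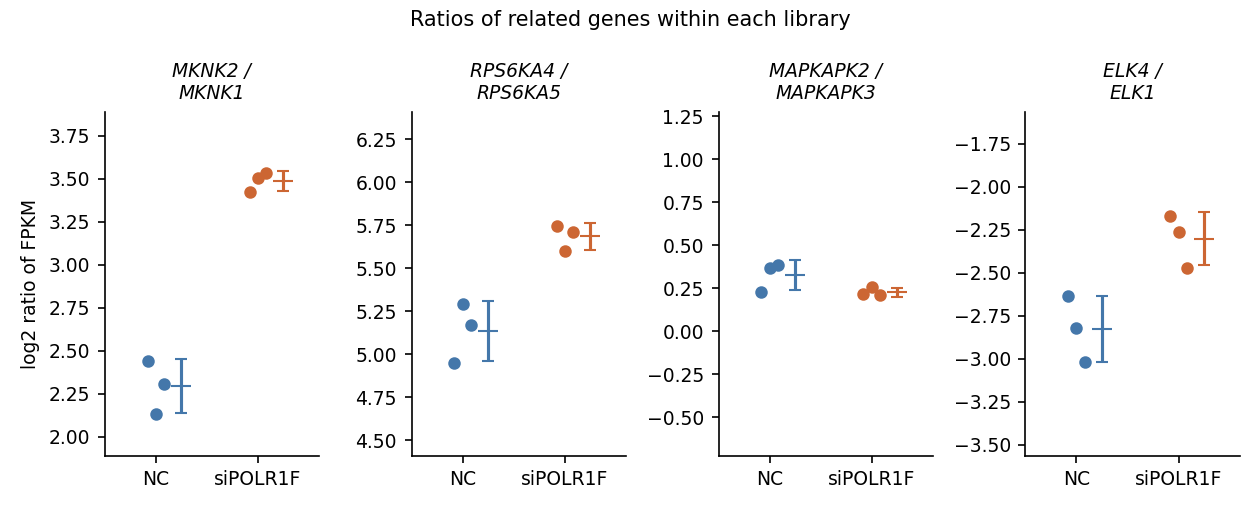
Log2 ratio of FPKM within each library for 4 pairs of related genes; points are libraries and the bars give the mean ± SD (n = 3), and every panel spans the same height of 2 log2 units. The MKNK2 to MKNK1 ratio moved from 2.29 to 3.49, and the MAPKAPK2 to MAPKAPK3 ratio overlapped between the groups.

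The transcripts of MKNK2 and ELK4 both hold the heptamer TCGGAGA in the 3′ UTR. This heptamer was picked up in an earlier scan of 3′ UTR words that used the same fold changes, so its presence in members that rose is a description and supports nothing. In the GENCODE 29 transcript with the longest 3′ UTR of each gene (GRCh38), it was found in 3 of the 9 members: once in the 3′ UTR of MKNK2 (chr19:2038168-2038174, minus strand, base 1439 of 2148), once in the 3′ UTR of ELK4 (chr1:205614591-205614597, minus strand, base 1949 of 8603) and once in the coding sequence of ATF2 (chr2:175093214-175093220, minus strand). The sites are shown with 11 bases on each side, 5′ to 3′ on the transcript, with the heptamer in capitals.
MKNK2: gggtgggggccTCGGAGAccgtctgcctg
ELK4: tatctgtagtgTCGGAGActtgttactgg
ATF2: acaagtggtcgTCGGAGAagagcagctaa

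MKNK2 and ELK4, with the heptamer in the 3′ UTR, rose, and ATF2, with it in the coding sequence, did not pass the test. RPS6KA4 rose without holding it in the transcript searched. Of 11151 tested genes searched in the same way, 2.18% held it in the 3′ UTR and 7.28% in the coding sequence. These shares were not matched for length: the 3′ UTR searched had 8603 bases in ELK4 and 735 in RPS6KA4. The second heptamer of that scan, CCGACTT, was found in none of the 9 transcripts searched; it was in the 3′ UTR of 1.99% of the genes searched. These transcripts are the annotated forms with the longest 3′ UTR, which need not be the longest transcripts. Which forms the cells used was not measured in a table of gene totals.

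The genes around the members were taken from 8 lists, with 135 genes in all, of which 126 were tested, 22 rose and 8 fell. That is 17.5% higher and 6.35% lower, beside 10.3% and 6.94% of all genes tested. The lists were chosen with earlier results of these data known, so these shares are a description and not independent evidence. The share called higher was 40% for the immediate-early genes, 31.6% for the other transcription factors and 20% for the MSK substrates (2 of 10 genes). It was 5.00% to 12.5% in the other 5 lists, which is near or below the share of all genes. Some genes stand in 2 lists, and ATF1 counts as a rise both among the MSK substrates and among the other transcription factors. The share called lower was 0% to 11.1% over the 8 lists. Among 16 tested p38 kinases and their upstream kinases, 2 rose, 1 fell and 13 did not pass, with a median log2 fold change of 0.05. TAOK3 rose by 0.38 and MAP3K4 by 0.31, while MAP3K20, the stress kinase also called ZAK, fell by 0.39 on the log2 scale. The call of MAP3K4 was lost without siPOLR1F replicate 3 (edgeR adjusted p = 0.0679, within 0.00143 to 0.0679 over all alternatives tried). None of the 4 p38 genes passed; MAPK14, the gene of p38α, was at 8.47 ± 0.405 FPKM in NC and 9.26 ± 0.696 FPKM in siPOLR1F (SD, n = 3; chosen after its value was seen).

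Of 9 tested relatives among the RSK, S6 and ERK-type kinases, 1 rose and 1 fell. MAPK6, which encodes ERK3, the partner kinase of MAPKAPK5, rose from 7.75 ± 0.644 to 15.4 ± 1.18 FPKM (SD, n = 3; log2 fold change 1.00; edgeR adjusted p = 3.03e-04). RPS6KB2, an S6 kinase gene, fell by 0.60 on the log2 scale (edgeR adjusted p = 0.00130). MAPK6 thus doubled in level while MAPKAPK5 itself was at 1.67 FPKM in both groups.

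Substrates of the member kinases mostly did not pass the test. Of 18 tested substrates and partners of the MAPKAPK kinases, KHSRP, a decay factor of AU-rich RNAs, rose by 0.23, and the ubiquitin-conjugating enzyme gene UBE2J1 (-0.46) and the actin-capping gene CAPZA1 (-0.24) fell; 15 did not pass. The calls of KHSRP (edgeR adjusted p = 0.0327) and CAPZA1 (0.0455) were each lost in 5 of 6 omissions of a single library, all but that of NC replicate 2 for KHSRP and of NC replicate 3 for CAPZA1 (0.0510 to 0.139; over all alternatives, 0.00512 to 0.132 for KHSRP and 0.0104 to 0.169 for CAPZA1). HSPB1, the classical MAPKAPK2 substrate and chosen after its value was seen, was at 92.3 ± 4.41 FPKM in NC and 91.4 ± 5.43 FPKM in siPOLR1F (SD, n = 3).

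Of 18 tested genes of the eIF4F cap-binding complex and other MNK substrates, 2 rose, 1 fell and 15 did not pass. SPRY2, an inhibitor of receptor signalling, rose by 0.38, the helicase gene EIF4A2 rose by 0.20 and the RNA-binding protein gene HNRNPA1 fell by 0.18 on the log2 scale. When siPOLR1F replicate 2 was omitted the edgeR adjusted p of SPRY2 was 0.0514, and when replicate 3 was omitted 0.0566, so the call was lost in both cases (range 1.60e-04 to 0.0570 over its alternatives). EIF4A2 lost it without any library but NC replicate 1 (0.0559 to 0.0883, within 0.00576 to 0.0883), and HNRNPA1 without any but NC replicate 3 (0.0688 to 0.102, within 0.0147 to 0.134). EIF4E, the MNK substrate itself and chosen after its value was seen, was at 12.9 ± 1.19 FPKM in NC and 13.2 ± 0.404 FPKM in siPOLR1F (SD, n = 3), beside the doubled MKNK2 level.

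Of 10 tested MSK substrates, 2 rose and 8 did not pass, and 0 fell by edgeR. At an unadjusted edgeR p below 0.05, which many of all genes tested pass, 2 of the 10 were lower. These were CREB1 and HMGN1, named after their values were seen. DESeq2 called 1 lower. The CREB relative ATF1 rose from 5.61 ± 0.584 to 8.02 ± 0.170 FPKM and STAT3 from 5.04 ± 0.116 to 6.24 ± 0.324 FPKM (SD, n = 3), and both held in every alternative.

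Of 19 other transcription factor genes of the pathway, 6 rose, 2 fell and 11 did not pass, with a median log2 fold change of 0.04. ATF1 (0.52), ATF7 (0.39), which is the closest relative of ATF2, and JUN (0.27), with which ATF2 pairs, rose. JUN lost its call without NC replicate 3, siPOLR1F replicate 1 or siPOLR1F replicate 3 (edgeR adjusted p = 0.0629, 0.0535 and 0.0709, within 0.00108 to 0.0906 over its alternatives). The count of 6 was 3 without NC replicate 3 or siPOLR1F replicate 1 and 2 without siPOLR1F replicate 3. The 2 that fell, named after their values were seen, were MITF (-0.28) and MEF2A (-0.25); both lost the call without any single library (0.0575 to 0.119 and 0.0664 to 0.162; over all alternatives 0.0179 to 0.119 and 0.0185 to 0.162). ELK1, ELK3 and SRF, the other ternary complex genes, did not pass, with log2 fold changes of 0.12, 0.07 and 0.04.

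Transcripts that respond to these factors were described with 2 lists. Of 20 tested serum response and CREB immediate-early genes, 8 rose and 12 did not pass, and 0 fell by edgeR. At an unadjusted edgeR p below 0.05, which many of all genes tested pass, 1 of the 20 was lower. This was CCN2, named after its value was seen. DESeq2 and limma called 0 lower. IER2 rose from 26.1 ± 1.79 to 48.0 ± 2.81 FPKM (SD, n = 3), the zinc finger factor gene EGR1 rose by 1.07 on the log2 scale and the kinase gene SIK1, a CREB target, by 0.64. The median log2 fold change of the list was 0.26, beside -0.01 over all genes tested. Of the 8 calls, 5 held in every omission of a single library, those of IER2, EGR1, SIK1, FOS and KLF6, and the count was 5 without each of the 3 siPOLR1F libraries in turn. These genes were already known to be higher in an earlier analysis of the same libraries, so their count is not independent evidence.

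Of 20 tested AU-rich transcripts that MAPKAPK2 and ZFP36 control, 1 rose, 1 fell and 18 did not pass. Their median log2 fold change was 0.19, beside -0.01 over all genes tested. PLAU, the gene of urokinase, fell from 105 ± 3.51 to 64.3 ± 3.27 FPKM (SD, n = 3; log2 fold change -0.70; edgeR adjusted p = 1.83e-04). The cytokine gene CSF3 rose by 1.16 (edgeR adjusted p = 0.0288) from 1.05 ± 0.496 FPKM (SD, n = 3), and lost the call without any library but NC replicate 2 (0.0621 to 0.0905, within 5.08e-04 to 0.126 over its alternatives). CXCL8, chosen after its value was seen, was at 10.99 ± 4.68 FPKM in NC and 16.2 ± 1.57 FPKM in siPOLR1F (SD, n = 3) with overlapping groups. Its NC values were 7.66, 16.3 and 8.98 FPKM, and it did not pass with all libraries (edgeR adjusted p = 0.148). It passed without NC replicate 2 (edgeR adjusted p = 0.00359) and in no other omission of a single library.

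**Figure D4:**
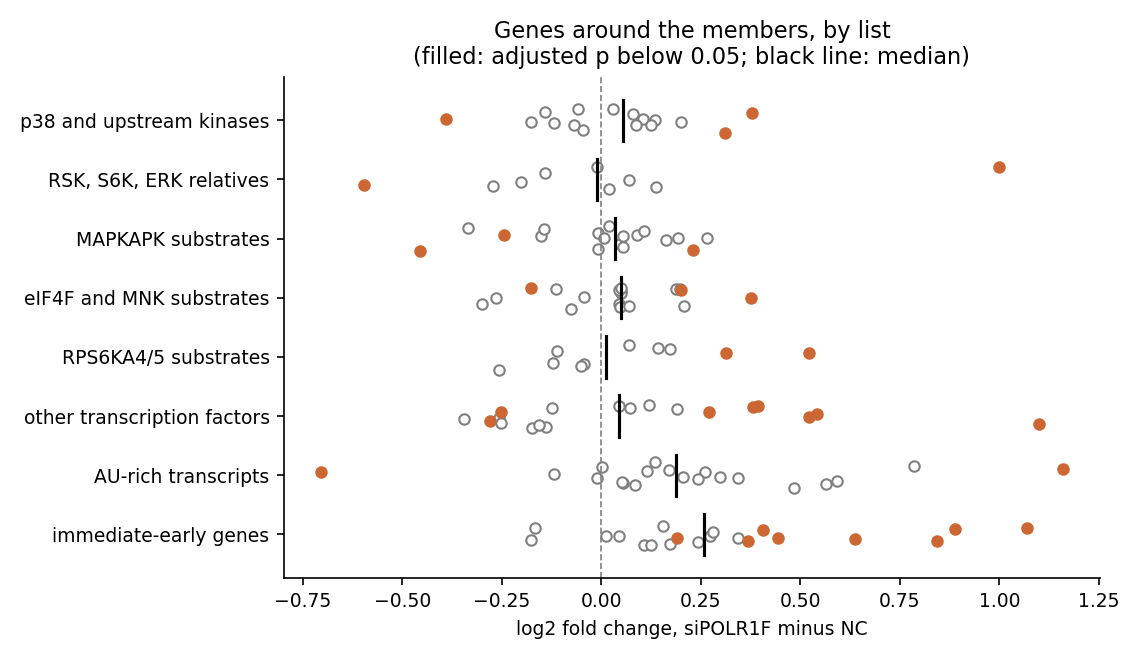
Log2 fold changes (siPOLR1F minus NC) of the tested genes in the 8 lists around the members; each point is a gene, filled where the edgeR adjusted p is below 0.05, and the black line is the list's median. Medians lie between -0.01 and 0.19 in 7 lists and at 0.26 for the immediate-early genes.

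The genes whose levels followed each risen member most closely over the 6 libraries were sought among 6562 genes with a mean of at least 5 FPKM, by Pearson correlation of log2(FPKM + 1). Each of these members differs between the groups, so the correlations carry that difference and are given as a description. MKNK2 was followed closely by RAC1 (r = 0.998), the gene of a small GTPase, and ATG14 (0.998), an autophagy gene. RAC1 went from 31.1 ± 0.891 to 43.0 ± 0.391 FPKM (SD, n = 3). RPS6KA4 was followed by the glutamine transporter gene SLC1A5 (0.998), the tRNA methyltransferase gene TRMT1 (0.998) and PROSER1 (0.998), and ELK4 by TNFRSF21 (0.995), RBL1 (0.994) and TBRG1 (0.993). The genes named here were themselves called higher, except TBRG1, which did not pass (edgeR adjusted p = 0.111).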

How the data were processed

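The reads went through fastp, HISAT2 and StringTie on GRCh38 (hg38), per the submitters' processing notes; tool versions, annotation release and strand setting are not stated there, so reads of overlapping genes may be divided between them. The authors deposited 1 table of 33539 genes with a whole-number count and an FPKM per library, all matched to samples by library name. The members and lists were chosen with earlier results of these data known.

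Counts were tested with edgeR 4.0.16 (R 4.3.3; TMM, glmQLFit, glmQLFTest, two-sided) over the 13564 genes whose FPKM averaged 0.5 or more, with Benjamini-Hochberg adjustment over all of them and a threshold of 0.05. The SE is the log2 fold change over the square root of F, and the 95% interval uses the test's degrees of freedom. Depth was alike (60576788 to 63038378 counts), and libraries of a group differed by more than sampling noise. In a simulation of the siPOLR1F against NC counts for 13564 genes, 78% of 50 genes raised by 1 on the log2 scale and 48% of 50 raised by 0.5 were recovered. Only 50 genes were changed at each of -1, -0.5, 0.5 and 1, which gave 130 calls. The data gave 1391 higher and 942 lower genes, so the adjusted threshold was stricter in the simulation. These rates therefore do not give the recovery in the data. Alternatives were DESeq2 1.42.0, other scalings and filters, limma 3.58.1 on log2(FPKM + 1) and log2(FPKM + 0.1), a replicate block and each library left out.

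Named genes were the 9 members, POLR1F, F2R, up to 3 per list with the smallest adjusted p past the test, and per risen member the 3 best correlated genes, of which 1 is not reported here; others are marked as chosen after their values were seen. Promoter windows came from RefSeq (GRCh38.p14) and transcripts from GENCODE 29.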

Additional observations from a re-analysis of the deposited data

How the results depend on the processing

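MKNK2, ELK4 and RPS6KA4 stayed past the threshold, and the other 6 members below it, in every alternative that tested them. MKNK1, RPS6KA5, ELK4 and MAPKAPK5 were not tested at a mean FPKM of at least 5. The log2 fold change of MAPKAPK5 was 0.01 and turned to -0.01 (-0.0060) with library size alone; it ran from -0.0384 to 0.0603 when single libraries were left out, and was -0.0384 without NC replicate 1, -0.00196 without NC replicate 2, -0.00523 without siPOLR1F replicate 1 and -0.0187 without siPOLR1F replicate 3. Without a filter on low values, where more genes are tested, 663 genes were higher and 313 lower, and of the list genes 11 were higher and 4 lower. Leaving out single libraries gave 730 (without siPOLR1F replicate 3) to 1326 higher and 423 to 841 lower genes, against 1391 and 942 with all libraries, and 10 to 20 higher and 4 to 6 lower list genes; the counts moved over 1.5 times without NC replicate 3 (877 and 539), siPOLR1F replicate 1 (813 and 444), 2 (898 and 517) or 3. Of 30 list genes called, 14 kept the call in all alternatives. A replicate block gave 1517 higher and 1125 lower genes and called the same number of members (3 higher, 0 lower). The deviations of same-numbered libraries from their group means correlated at 0.293, 0.0157 and 0.274, not over 0.1 in every pair, so the numbers were not taken to pair the samples; each library correlated best with its own number, a hint from the data and not from the design.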
